A study of Mus musculus with 6 samples.

Results

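Aminoacyl-tRNA synthetases are the enzymes that join each amino acid to its transfer RNA (tRNA). Their genes were chosen by symbol: the cytosolic and mitochondrial synthetases and the accessory proteins Aimp1, Aimp2 and Eef1e1, as far as the symbols matched. The rule found 41 of the 37761 genes in the table, and it used no measured value. Of these 41 genes, 21 encode cytosolic enzymes or their subunits, 17 encode mitochondrial enzymes and 3 encode accessory proteins.

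Messenger RNA and long noncoding RNA were sequenced in 3 libraries of whole pancreas dissected from mouse embryos at e15.5 and in 3 libraries of islets that had been freed from the pancreas of 12-week-old mice with collagenase. All mice were wild type, and no treatment is given for either group. Islets are the endocrine clusters of the pancreas, in which beta cells make insulin. The groups differ in tissue, in isolation and in age at once, and these cannot be told apart. The labels do not say whether replicate libraries stem from different animals, so each p-value rests on a spread between libraries that may be technical.

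Cytosolic synthetases charge the tRNAs that ribosomes use to translate nuclear mRNAs. Several of them sit in the multisynthetase complex, which is held together by Aimp1, Aimp2 and Eef1e1. Mitochondria use a mostly separate set of enzymes, also encoded in the nucleus, to translate the few proteins of the mitochondrial genome. When amino acids run short, uncharged tRNA activates the kinase Eif2ak4, also known as Gcn2, and translation of the transcription factor Atf4 rises. Atf4, which is also made more when unfolded proteins strain the endoplasmic reticulum, activates genes for amino acid synthesis and transport and many cytosolic synthetases. Secretory cells such as beta and acinar cells make large amounts of protein for export.

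Values are normalized counts, that is, reads of a gene divided by a size factor per library. Differences are log2 fold changes, islets against embryonic pancreas, of log2(value + 1), with their standard error (SE). A gene was called higher or lower at an adjusted p under 0.05 by limma-trend, with Benjamini-Hochberg adjustment over the 21653 genes tested. Between 35059950 and 47346870 reads per library were assigned to genes. The lowest of the 41 genes in any library rested on 223 reads.

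Marker genes were read to check the tissue labels. All 8 beta cell markers were higher in islets, with a summed level of 6313 to 11260 across the embryonic libraries and 3941498 to 4655357 in the islet libraries. All 7 mesenchyme markers were lower in islets, with a sum of 162226 to 187928 against 1377 to 2847. All 7 markers of dividing cells were lower, with a sum of 82629 to 101901 against 447 to 500. Of 10 acinar markers 6 were higher and 3 lower in islets, with a sum of 150542, 183647 and 132069 across the embryonic libraries against 410454, 819339 and 322738 in islets. The islet libraries thus also carried RNA of digestive enzyme genes, and islet library 2 stood above the other islet libraries in this sum. All 7 erythroid markers were lower in islets, where the embryonic globin Hbb-y was at 0. The part of these other cells in the results below was not tested. In RNA from whole tissue, fewer cells of a type and less RNA per cell cannot be told apart.

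Embryonic library 2 stood apart for these genes. It was the highest of the embryonic libraries for 40 of the 41 genes, or 97.6%, against 51.3% of all genes tested. The exception was Lars2. The counts by role are therefore given with and without this library, and without islet library 2.

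All 41 genes passed the filter on low values and were tested. Of these, 18 were higher in islets, 14 were lower and 9 were not called. Over all genes tested 72.8% were called, 36.2% higher and 36.6% lower, so the 32 calls among the 41 genes lay near that share. The median log2 fold change was −0.00 for the 41 genes and −0.03 for all genes tested. The groups of libraries did not overlap for 34 of the 41 genes, where 77.1% of all genes tested had no overlap. By role the directions parted. Of the 21 cytosolic genes 15 were higher and 4 lower, with a median of 1.05. Of the 17 mitochondrial genes 3 were higher and 8 lower, with a median of −0.23. None of the 3 accessory genes was called higher and 2 were lower, with a median of −0.42. Without embryonic library 2 the cytosolic genes gave 15 higher and 3 lower, and the mitochondrial genes 4 higher and 8 lower. Without islet library 2 the cytosolic genes gave 14 higher and 3 lower, and the mitochondrial genes 3 higher and 7 lower.

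The steps of change differed by role too. A called rise of at least 2-fold was found for 12 of the 41 genes, namely 11 of the 21 cytosolic genes and Lars2, where 22.6% of all genes tested rose as much. A called fall of at least 2-fold was found for 0 of the 41 genes, where 25.5% of all genes tested fell as much. By limma-trend 14 of the 41 genes were lower at the adjusted threshold, each by less than 2-fold. In the authors' deposited table, 29 of the 41 genes had an adjusted p under 0.05, 16 of them higher and 13 lower. The share over all genes of that table was not counted. DESeq2, run again on read counts recovered from the table, called 29 of the 41 genes and 16360 of all 29698 genes tested.

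**Figure D1:**
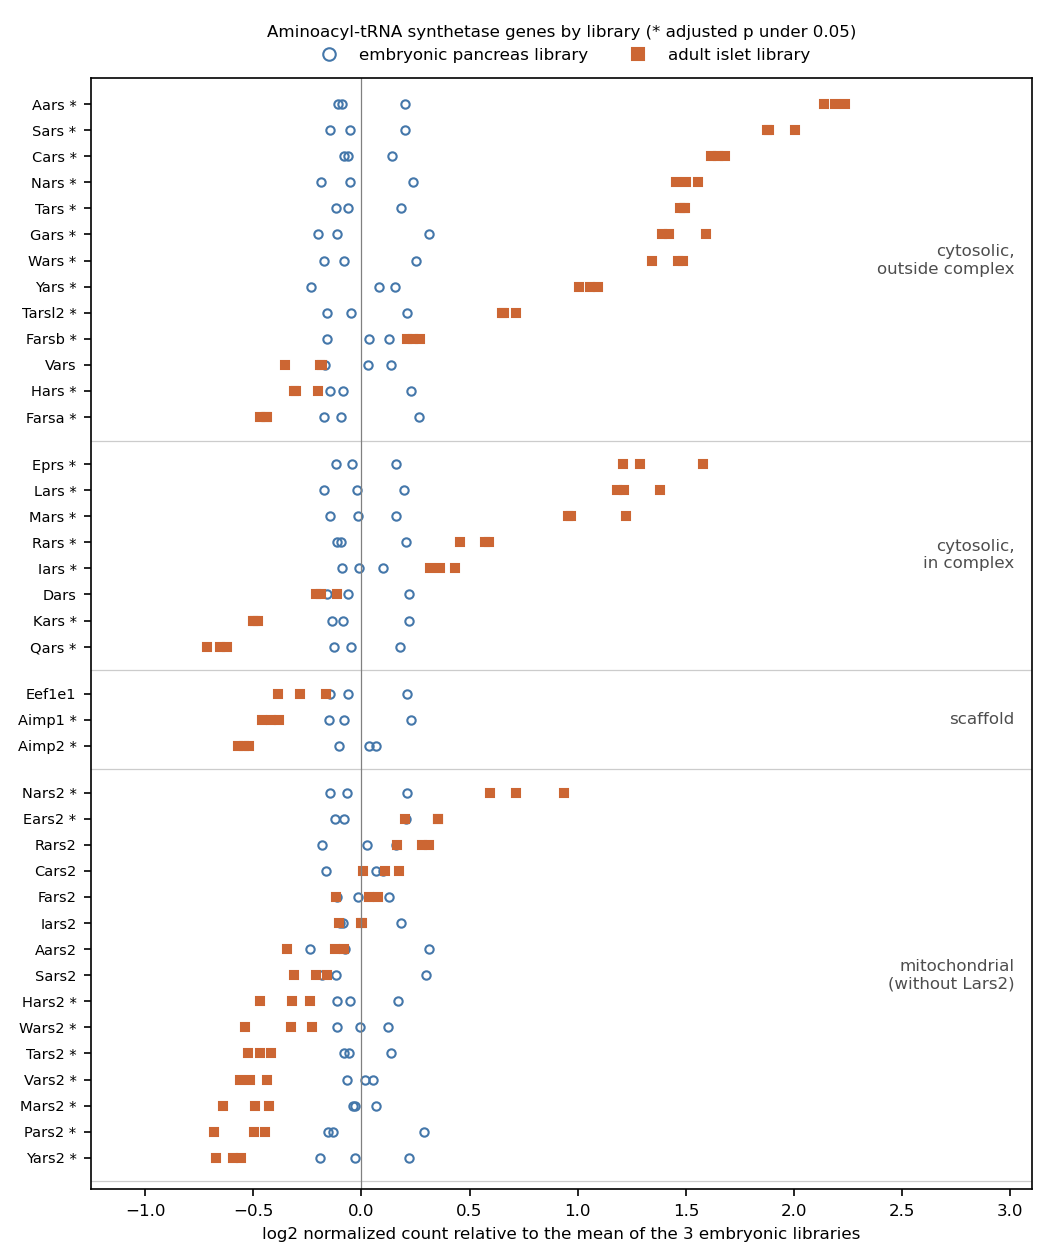
Normalized counts of 39 synthetase and accessory genes in each library, as log2 values relative to the mean of the 3 embryonic libraries; circles are embryonic libraries, squares are islet libraries, and a star marks an adjusted p under 0.05. The squares of 11 cytosolic genes lie at least 1 log2 unit to the right on average, and no gene lies as far to the left. Lars2 is left out because its rise of 6.34 would set the scale; under other scalings the small differences of Farsb, Iars, Ears2, Cars2 and Rars2 change sign.

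The cytosolic synthetases outside the complex changed the most. Of these 13 genes 10 were higher in islets, 2 were lower and Vars was not called, with a median log2 fold change of 1.43. The steepest rise was that of Aars, the alanyl-tRNA synthetase (Ensembl gene ENSMUSG00000031960.14 in GENCODE M21, chr8:111033144-111057664 on GRCm38, plus strand). Aars had 3690, 4523 and 3645 normalized counts across the embryonic libraries and 17328, 17930 and 18517 in islets. Every islet library was above every embryonic library, and the log2 fold change was 2.19 (SE 0.10, limma-trend adjusted p = 1.9e-07, n = 3 per group). The exons of Aars share 15.1% of their length with Exosc6 and Gm24103, so that some of its reads may have been left unassigned.

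Sars, the seryl-tRNA synthetase, followed Aars. It had 3890, 4943 and 4147 normalized counts across the embryonic libraries and 15865, 15774 and 17243 in islets. The groups lay far apart, with a log2 fold change of 1.92 (SE 0.11, limma-trend adjusted p = 4.8e-07). The islet mean of Nars (asparagine) was 2.82 times its embryonic mean. Cars (cysteine) rose by 1.65, Tars (threonine) by 1.48, Wars (tryptophan) by 1.43 and Yars (tyrosine) by 1.05 on the log2 scale. Each of these 5 genes was without overlap between the groups.

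Gars, the glycyl-tRNA synthetase, has no separate mitochondrial gene, since its transcripts serve both compartments. It had 6535, 8779 and 6146 normalized counts across the embryonic libraries and 18901, 18512 and 21322 in islets. Embryonic library 2 was the nearest to the islet libraries but still far below them, and the log2 fold change was 1.47 (SE 0.14, limma-trend adjusted p = 1.6e-05). Kars, the lysyl-tRNA synthetase, also serves both compartments from 1 gene and is counted here with the complex. Kars went the other way, as given with the complex below.

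Smaller rises outside the complex were those of Tarsl2, a second threonyl-tRNA synthetase of the cytosol, by 0.67, and of Farsb, the beta subunit of the phenylalanyl-tRNA synthetase, by 0.24 (limma-trend adjusted p = 0.042). The partner subunit Farsa fell. Farsa had 1508, 2047 and 1593 normalized counts across the embryonic libraries and 1251, 1256 and 1229 in islets. All islet libraries lay below all embryonic ones, with a log2 fold change of −0.45 (SE 0.12, limma-trend adjusted p = 0.008). The 2 subunits of 1 enzyme were thus called in opposite directions, although the rise of Farsb was lost in edgeR, in DESeq2 and with any islet library left out, and its value was −0.01 under quantile normalization, −0.02 under upper quartile scaling and −0.21 under limma-voom.

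Hars, the histidyl-tRNA synthetase, had 2569, 3339 and 2684 normalized counts across the embryonic libraries and 2473, 2305 and 2294 in islets. The islet libraries were all lower, but the fall of 0.27 on the log2 scale was only just called (SE 0.11, limma-trend adjusted p = 0.049), and without embryonic library 2 it was −0.16 and not called. Vars, the valyl-tRNA synthetase, had 3138, 3876 and 3597 across the embryonic libraries and 2756, 3089 and 3107 in islets. Its groups did not overlap either, but the difference was not called (log2 fold change −0.24, limma-trend adjusted p = 0.056).

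Stretches of the promoters of Gars and Tars are shown because they hold, before the start site given by RefSeq, the core letters of the C/EBP-ATF response element, the element through which Atf4 is known to act. The letters searched were TGATGNAA on both strands, in RefSeq promoters on GRCm38.p6 that run from 250 bases before to 50 bases after the start. The capitals mark the match, which reads on the opposite strand here. The stretches, 5′ to 3′ on the strand of the gene, lie at chr6:55037960-55037989 (plus strand) for Gars and at chr15:11399659-11399684 (minus strand) for Tars.
Gars: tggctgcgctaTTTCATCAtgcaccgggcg
Tars: caggagtcccgTTGCATCAgctggtt
The match began 30 bases before the RefSeq start in Gars and 15 in Tars. A match of these letters is a description of the sequence and not a measured site.

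By symbol or a unique synonym, RefSeq promoters could be matched to 31 of the 41 genes, with 33 promoters in all. Those not matched by name included Cars, Hars, Hars2, Lars, Nars, Pars2, Rars, Vars and Wars, which may have a promoter under another name. Cars, Lars, Nars and Wars, each called at least 2-fold higher, are thus missing from the counts that follow. TGATGNAA stood in 3.97% of all 32851 promoters of this length. It stood in 5 of the 14 cytosolic promoters, those of Aars, Gars, Iars, Tars and Yars, and all 5 genes were called higher in islets. These were 5 of the 10 cytosolic promoters of genes called higher, and Sars, Eprs, Mars, Tarsl2 and Farsb rose without these letters in the window. The match in Iars and in Yars lies after the start. None of the 15 mitochondrial promoters, the 4 accessory gene promoters or the 4 cytosolic promoters of genes not called higher held the letters. The E-box CACGTG was present in 5 of the 33 promoters, or 15.2%, against 7.15% of all promoters. These were the promoters of Aars, Farsb, Iars, Tars and the mitochondrial Ears2, and the E-box of Tars and of Ears2 lies after the start. The cAMP response element TGACGTCA was in 0 of the 33 promoters and in 1.79% of all promoters, and no motif searched contains the letters of another. Binding to these promoters was not measured.

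Within the multisynthetase complex the enzymes split. Of its 8 synthetase genes 5 were higher in islets, 2 were lower and Dars was not called, with a median log2 fold change of 0.46. The steepest rise was that of Eprs (ENSMUSG00000026615.14, chr1:185363044-185428360, plus strand), which encodes the glutamyl- and prolyl-tRNA synthetase as 1 fused protein. Eprs had 11658, 13443 and 11072 normalized counts across the embryonic libraries and 27752, 29373 and 35852 in islets. The islet libraries spread more than the embryonic ones but none came near them, with a log2 fold change of 1.36 (SE 0.13, limma-trend adjusted p = 1.5e-05).

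Lars, the leucyl-tRNA synthetase, which is also known as a leucine sensor of the mTORC1 pathway, rose next. It had 4494, 5812 and 5002 normalized counts across the embryonic libraries and 11767, 11524 and 13221 in islets. Islets had about 2.39 times the embryonic mean, and the log2 fold change was 1.26 (SE 0.11, limma-trend adjusted p = 9.9e-06). Mars, the methionyl-tRNA synthetase, rose by 1.05, Rars (arginine) by 0.54 and Iars (isoleucine) by 0.37 on the log2 scale. The rise of Rars was lost under limma-voom, at 0.09. The rise of Iars was lost under quantile normalization, upper quartile scaling and scaling without the 20 most abundant genes, and under limma-voom its value was −0.08.

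Qars, the glutaminyl-tRNA synthetase (ENSMUSG00000032604.16, chr9:108507706-108515941, plus strand), fell the most among the cytosolic enzymes. It had 3126, 3659 and 2958 normalized counts across the embryonic libraries and 2101, 2054 and 1971 in islets. The groups were well apart and the log2 fold change was −0.66 (SE 0.10, limma-trend adjusted p = 0.00024). Kars had 5623, 7207 and 5825 across the embryonic libraries and 4390, 4437 and 4366 in islets. The islet libraries were close to each other and below all embryonic ones (log2 fold change of −0.49, SE 0.10, limma-trend adjusted p = 0.0024).

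Dars, the aspartyl-tRNA synthetase of the complex, had 5161, 6269 and 4824 normalized counts across the embryonic libraries and 4660, 4983 and 4724 in islets. The groups overlapped and the difference of −0.17 was not called (limma-trend adjusted p = 0.18). Dars was the single cytosolic gene of the 21 with overlapping groups.

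The accessory proteins of the complex did not rise. Aimp2 had 373, 381 and 338 normalized counts across the embryonic libraries and 249, 245 and 253 in islets. The groups were separate and the log2 fold change was −0.54 (SE 0.12, limma-trend adjusted p = 0.0029), where 29.4% of the exon length of Aimp2 is shared with Eif2ak1. Aimp1, which is also secreted as a cytokine, had 2161, 2805 and 2266 across the embryonic libraries and 1742, 1790 and 1839 in islets. Its fall was −0.42 on the log2 scale (SE 0.11, limma-trend adjusted p = 0.0068) with no overlap. Eef1e1 had 815, 984 and 769 against 700, 761 and 651, all islet libraries being lower, and was not called (log2 fold change −0.28, limma-trend adjusted p = 0.064).

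Synthetases fall into 2 structural classes by the fold of their catalytic domain, with Eprs belonging to both. Of the 9 other cytosolic genes of class I, 7 were higher, 1 was lower and 1 was not called, with a median of 1.05. Of the 11 of class II, 7 were higher, 3 lower and 1 not called, with a median of 0.68. The difference between the classes was not tested.

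The mitochondrial enzymes, named with a final 2, were mostly at or below their embryonic level. Leaving out Lars2, 2 of 16 were higher in islets, 8 were lower and 6 were not called, with a median log2 fold change of −0.29. None of these 16 differences reached 2-fold.

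Yars2, the tyrosyl enzyme, had 987, 1172 and 882 normalized counts across the embryonic libraries and 685, 667 and 631 in islets. The groups did not overlap, and the log2 fold change was −0.61 (SE 0.12, limma-trend adjusted p = 0.0015). Other falls were those of Pars2 by 0.54, Mars2 by 0.52, Vars2 by 0.50, Tars2 by 0.47, Wars2 by 0.36 and Hars2 by 0.34 on the log2 scale. The calls of Pars2 and Hars2 were lost without islet library 1, at −0.47 and −0.28, and that of Wars2 without islet library 2, at −0.28.

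Nars2, the asparaginyl enzyme (ENSMUSG00000018995.12, chr7:96951505-97064758, plus strand), was the mitochondrial gene after Lars2 with the steepest rise. It had 646, 784 and 612 normalized counts across the embryonic libraries and 1022, 1110 and 1294 in islets. All islet libraries were higher, with a log2 fold change of 0.75 (SE 0.13, limma-trend adjusted p = 0.00073). Ears2, the glutamyl enzyme, was 0.30 higher (limma-trend adjusted p = 0.036). Its groups overlapped by 1 library, and the call was lost under several scalings and left-out libraries, with −0.15 under limma-voom.

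The 6 mitochondrial genes not called ran from a log2 fold change of −0.23 for Sars2 to 0.25 for Rars2. Rars2 had 1409, 1547 and 1222 normalized counts across the embryonic libraries and 1684, 1553 and 1721 in islets (log2 fold change 0.25, limma-trend adjusted p = 0.056). Its islet libraries were all higher, by a small margin in library 2. Cars2 had 450, 539 and 527 against 568, 506 and 544, with mixed order. Fars2, whose difference was −0.00, had 770, 851 and 720 against 718, 797 and 821. Iars2 had 3107, 3777 and 3128 against 3088, 3324 and 3334, and 24.2% of its exon length is shared with 2010103J01Rik and Rab3gap2. Cars2, Fars2 and Iars2 thus showed overlapping groups. Aars2 had 436, 640 and 489 against 405, 473 and 486, and Sars2 had 310, 433 and 324 against 315, 284 and 304. In both, embryonic library 2 was well above the other 5 libraries.

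To compare genes with each other, levels were divided by the length of the principal transcript. On this per-kilobase scale the median cytosolic gene had 1160 normalized counts per kilobase in embryonic pancreas and 2190 in islets. The median mitochondrial gene without Lars2 had 297 and 293. Kars was the highest cytosolic gene in the embryonic libraries, at 3097 normalized counts per kilobase, and Gars in islets, at 8226. Tarsl2 was the lowest cytosolic gene in both, at 250 and 397. Among mitochondrial genes other than Lars2, Rars2 was the highest in both groups, at 746 and 885 normalized counts per kilobase. Mars2 was the lowest, at 83.4 and 58.3, though its annotated transcript of 11294 bases is the longest of the set.

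As a share of all reads assigned to genes, the 21 cytosolic genes together took 0.231, 0.250 and 0.235% in the embryonic libraries. They took 0.359, 0.357 and 0.374% in the islet libraries. The 16 mitochondrial genes without Lars2 took 0.0453, 0.0480 and 0.0466% across the embryonic libraries and 0.0309, 0.0307 and 0.0310% in islets. The cytosolic share was thus higher in every islet library and the mitochondrial share lower in every one, as parts of the assigned reads. These shares depend on what other genes take up, and the 8 beta cell markers alone summed to at least 3941498 normalized counts in each islet library.

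A ratio of 2 genes within a library does not depend on a scaling factor per library, but it can change under quantile normalization. For 17 amino acids the cytosolic enzyme was divided by the mitochondrial enzyme of the same amino acid, as log2((cytosolic + 1)/(mitochondrial + 1)). The mean ratio was higher in islets for 15 pairs and lower for 2. In 16 of the 17 pairs the groups did not overlap, 14 of these being higher in islets. Of all single genes tested 77.1% had no overlap, and the share over ratios of other gene pairs was not computed. For each of the 16 pairs the exact two-sided permutation p was 0.1, the smallest that 3 against 3 libraries can give, and 0.106 after adjustment over the 17 pairs. The median difference was 1.05, and in 9 of the 17 pairs the ratio was at least 1 log2 unit higher in islets. Eprs enters both the glutamate and the proline pair, so the pairs are not all separate.

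The alanine pair moved the most of the pairs that rose. Its log2 ratio of Aars over Aars2 was 3.08, 2.82 and 2.90 across the embryonic libraries and 5.41, 5.24 and 5.25 in islets. The ratio was 2.37 higher in islets on the log2 scale, with a wide gap between the groups. The serine pair (Sars over Sars2) was 2.15 higher, the threonine pair (Tars over Tars2) 1.95 higher and the proline pair (Eprs over Pars2) 1.90 higher.

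Small differences were those of arginine (Rars over Rars2), at 0.29, and valine (Vars over Vars2), at 0.26. The histidine pair overlapped, with ratios of 1.12, 1.22 and 1.12 across the embryonic libraries and 1.42, 1.17 and 1.08 in islets (exact permutation p = 0.7, n = 3 per group). Hars and Hars2 lie head to head and share some exon sequence on opposite strands, and the library kit is not stated to keep strand. The phenylalanine pair (Farsa over Fars2) was lower in islets by −0.45, with log2 ratios of 0.97, 1.26 and 1.15 across the embryonic libraries and 0.80, 0.66 and 0.58 in islets. This phenylalanine pair took Farsa alone for the cytosolic enzyme. The other subunit gene, Farsb, was 0.24 higher in islets on the log2 scale and was not paired. The leucine pair was lower by −5.08, which comes from Lars2. Without embryonic library 2 the ratio was still higher in 15 pairs. Under quantile normalization it was higher in 14 pairs, and most differences were smaller. The proline pair was then 1.42 higher and the valine pair 0.02 higher.

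**Figure D2:**
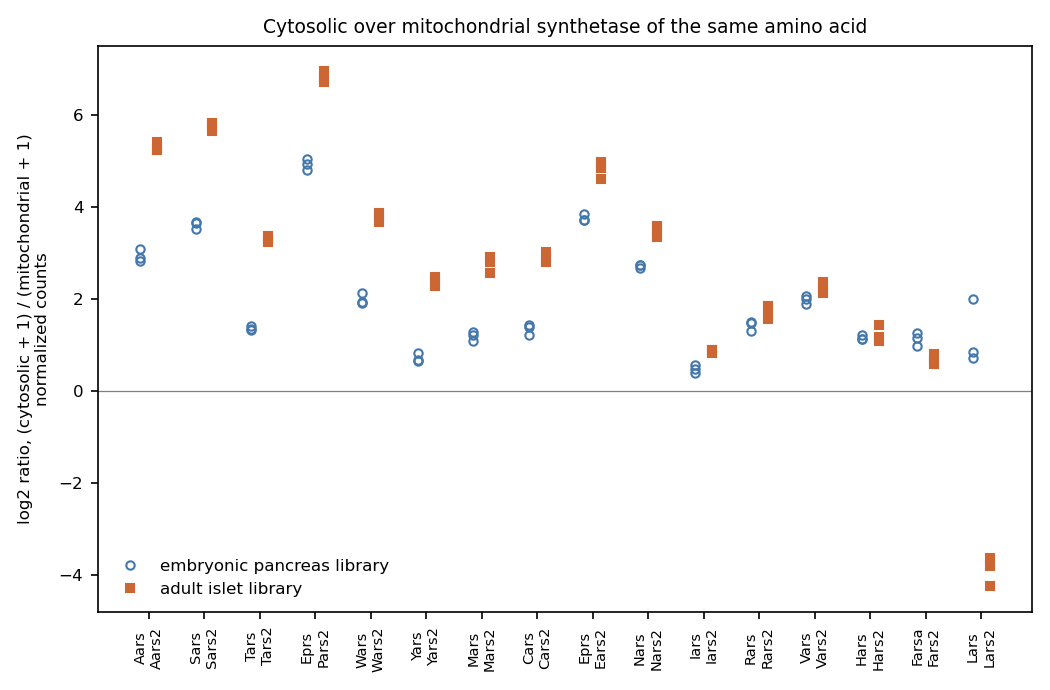
Log2 ratio of the cytosolic over the mitochondrial synthetase gene of the same amino acid in each library, in the order of the difference between the groups; circles are embryonic libraries and squares are islet libraries. The plot holds 16 of the pairs. The phenylalanine pair takes Farsa and not Farsb as the cytosolic gene. The squares lie above the circles in 13 of these, overlap them in the histidine pair, whose small difference changes sign under quantile normalization, and lie below them in the phenylalanine and leucine pairs.

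Lars2, the mitochondrial leucyl-tRNA synthetase (ENSMUSG00000035202.8, chr9:123366927-123462666, plus strand), stood far from all other synthetase genes. It had 2759, 1458 and 2798 normalized counts across the embryonic libraries and 224898, 142925 and 186087 in islets. The islet mean was 79.0 times the embryonic mean, and the log2 fold change was 6.34 (SE 0.26, limma-trend adjusted p = 9.4e-08). It ranked between 10 and 14 among all genes in the islet libraries and between 2297 and 5088 in the embryonic ones. Embryonic library 2, the highest for the other 40 genes, was the lowest of all 6 for Lars2. The spread within groups was also wide, with a coefficient of variation of 32.6% in embryonic pancreas and 22.2% in islets.

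Per kilobase, Lars2 had 600 normalized counts in embryonic pancreas, inside the range of the other mitochondrial enzymes, and 47416 in islets. Its neighbour Limd1 had 4463, 5711 and 4706 normalized counts across the embryonic libraries and 4587, 4860 and 4849 in islets and was not called. Whether all reads given to Lars2 came from its mRNA cannot be read from gene totals. The values of some other RNAs are set beside it for this reason.

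A further pair of genes was chosen after their values were seen. Gm15564, annotated as antisense (chr16:35966752-35983230, minus strand), had 413, 217 and 465 normalized counts across the embryonic libraries and 26259, 17856 and 21997 in islets. As with Lars2, embryonic library 2 was the lowest of all and islet library 2 the lowest of the islets. Its log2 fold change was 5.97 (SE 0.27, limma-trend adjusted p = 1.4e-07). Lars2 over Gm15564 was 6.68, 6.72 and 6.01 across the embryonic libraries and 8.56, 8.00 and 8.46 in islets, so that every islet ratio lay above every embryonic one.

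CT010467.1, annotated as a ribosomal RNA (rRNA) gene (chr17:39846353-39848827, minus strand), had 6616, 3011 and 7425 normalized counts across the embryonic libraries and 27205, 21863 and 20424 in islets. Embryonic library 2 was again the lowest, but the rise was smaller, with a log2 fold change of 2.12 (SE 0.30, limma-trend adjusted p = 0.00021), and among islets library 3 and not library 2 was the lowest. Lars2 over CT010467.1 was 0.417, 0.484 and 0.377 across the embryonic libraries against 8.27, 6.54 and 9.11 in islets. The mitochondrial rRNA genes mt-Rnr1 and mt-Rnr2, the noncoding Gm26917 and the small nuclear RNA Rn7sk were not called. Every islet library still lay above every embryonic one for mt-Rnr1 (log2 fold change 0.39, SE 0.33) and mt-Rnr2 (0.44, SE 1.31). For Gm26917 every islet library lay below (−0.45, SE 0.19), and for Rn7sk the groups overlapped.

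The 3′ untranslated region (UTR) of the principal Lars2 transcript (chr9:123461676-123462664, 989 bases) shares 72 bases at 98.6% identity with a Gm15564 transcript. The match to the genome there is longer, 167 bases at 97.6% identity with chr16:35981655-35981821, inside Gm15564, and it includes the same UTR bases. In the whole genome it had 18 matches elsewhere of at least 50 bases at 90% identity, the longest of 244 bases. None of the 9 annotated Lars2 transcripts matched mt-Rnr1, mt-Rnr2 or Gm26917 at those limits, and the 45S rRNA precursor was not analysed here. The part of shared sequence or rRNA in the level of Lars2 was not tested.

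**Figure D3:**
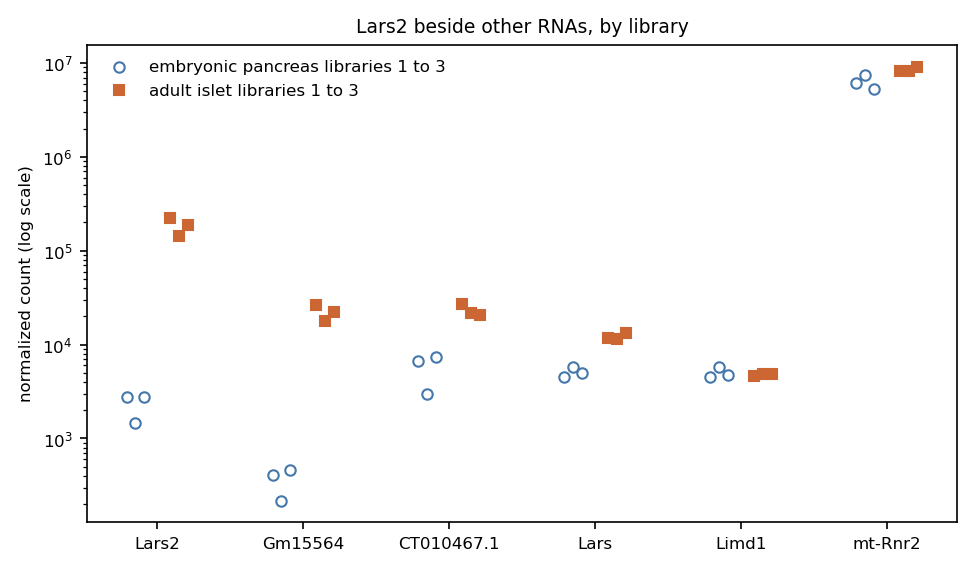
Normalized counts, on a log scale, of Lars2 and of genes set beside it in each library; circles are embryonic libraries and squares are islet libraries, from library 1 on the left to library 3 on the right. Lars2 and Gm15564 are both higher in all islet libraries, and embryonic library 2 is the lowest for Lars2, Gm15564 and CT010467.1.

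Other genes around tRNA charging were taken from lists, described here by counts and medians beside the 36.2% higher, 36.6% lower and median of −0.03 over all genes tested. The largest move was in known targets of Atf4 other than synthetases. Of 28 genes 24 were higher in islets and 3 were lower, with a median log2 fold change of 2.42, and Slc38a2, an amino acid transporter, was not called. Chac1, which degrades glutathione, had 9.61, 12.5 and 3.27 normalized counts across the embryonic libraries and 3835, 3913 and 4264 in islets, a log2 fold change of 8.88 (SE 0.37, limma-trend adjusted p = 1e-07). Trib3, a pseudokinase that restrains Atf4, had 25.9, 33.4 and 23.7 against 3403, 3780 and 4717, a log2 fold change of 7.11. In both genes the lowest islet library was far above the highest embryonic one. Asns, the asparagine synthetase, which was named after its value was seen, rose by 2.34. The 3 that fell were Cth, of cysteine synthesis, by 1.02, Phgdh, of serine synthesis, by 0.91, and Stc2, a secreted glycoprotein, by 0.78 on the log2 scale.

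Of the 8 genes of uncharged tRNA sensing 7 were tested, with 4 higher, 1 lower and a median of 0.28 (log2). Atf4 itself had 2987, 3848 and 3097 normalized counts across the embryonic libraries and 17667, 17865 and 19270 in islets. All islet libraries were well above, with a log2 fold change of 2.47 (SE 0.11, limma-trend adjusted p = 1.4e-07). Impact, an inhibitor of the kinase Eif2ak4, rose by 1.63, and Eif2s1, the alpha subunit of the initiation factor that the kinase phosphorylates, fell by 0.63 on the log2 scale. The kinase gene Eif2ak4, named after its value was seen, had 1545, 1666 and 1505 against 1494, 1506 and 1465 and was not called (log2 fold change −0.08, limma-trend adjusted p = 0.4). Phosphorylation and the translation of Atf4 were not measured.

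Genes that edit or recycle charged tRNA gave 4 higher and 0 lower of 7 tested, with a median of 0.42 and 3 not called by limma-trend. Prorsd1, named for its likeness to the editing domain of prolyl-tRNA synthetases, rose by 0.97. The list of cytosolic elongation factors, most of which help bring charged tRNA to the ribosome or move it on, went mostly down. Of 8 genes 6 were lower and 1 higher, with a median of −0.67. The 6 include Eef2k, at −0.70, which encodes a kinase of Eef2 and is not itself an elongation factor. They also include Eif5a, at −0.31, which does not carry tRNA. With any 1 islet library left out 4 genes of this list were called lower, and without embryonic library 1 there were 5. Under quantile normalization, upper quartile scaling and limma-voom 7 were lower. Eef1b2 fell by 1.29 and Eef1d by 1.05 on the log2 scale, both being exchange factors for Eef1a1. Eef1a2, the form of the factor typical of muscle and neurons, was the one that rose, from 18.3, 19.8 and 26.2 normalized counts to 1432, 1489 and 1325, where the islet mean was 66.1 times the embryonic mean (SE of the log2 fold change 0.18, limma-trend adjusted p = 1.8e-08).

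Selenocysteine is made on its own tRNA after Sars charges that tRNA with serine. Of 7 genes of this route 2 were higher and 3 lower, with a median of −0.21. Sepsecs, which completes selenocysteine on the tRNA, rose by 1.82 and Secisbp2, which reads the signal in the mRNA, by 0.65. Pstk, which phosphorylates the seryl-tRNA before Sepsecs, fell by 1.15, and Sephs1 fell by 1.57 on the log2 scale.

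Mitochondria make glutaminyl-tRNA by an indirect route, in which Ears2 charges the tRNA with glutamate and an amidotransferase of Gatb, Gatc and Qrsl1 converts it. Gatc was higher by 0.37 and Qrsl1 by 0.33, and Gatb fell by 0.36 on the log2 scale. Of 13 tested genes that process or modify mitochondrial tRNA 2 were higher, 3 lower and 8 not called, with a median of −0.12. Trmt61b and Nsun3, both methyltransferases, rose by 1.44 and 0.79, and Hsd17b10, a subunit of mitochondrial RNase P, and the pseudouridine synthase Pus1 fell by 1.78 and 0.50 on the log2 scale. Of 10 tested mitochondrial translation factors 4 were higher, 2 lower and 4 not called, with a median of 0.20. Mtif3 and Mrrf, of initiation and ribosome recycling, rose by 0.57 and 0.45, while Tufm, the elongation factor that carries charged tRNA, and Guf1 fell by 0.60 and 0.51 on the log2 scale.

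**Figure D4:**
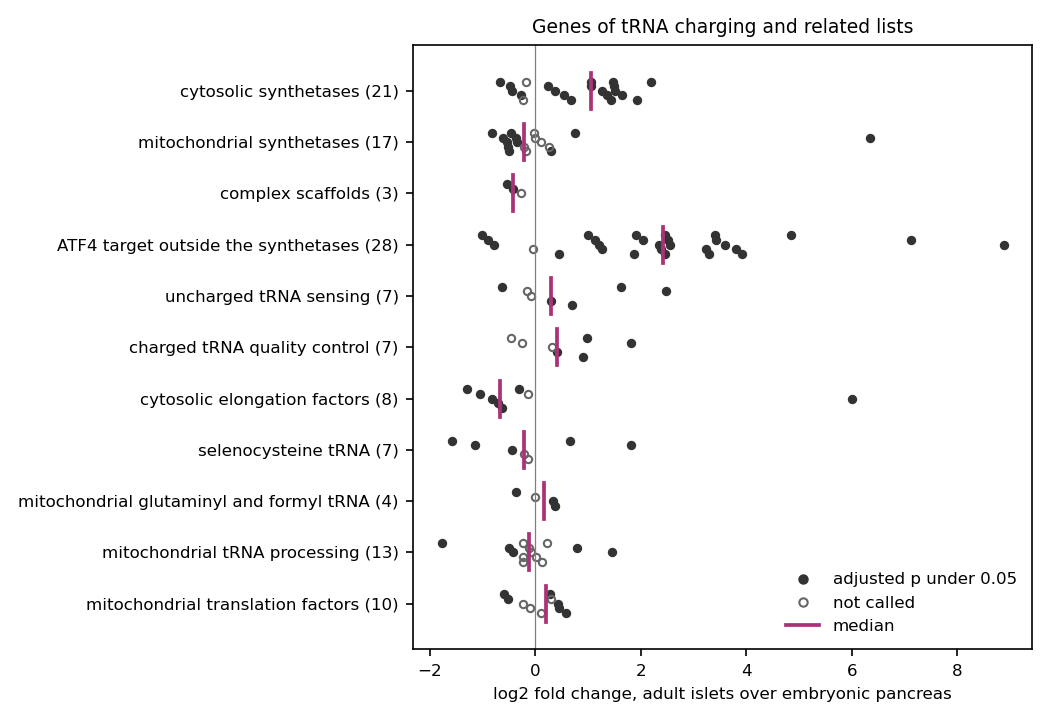
Log2 fold change of adult islets over embryonic pancreas for each gene tested, by list, with the number of genes in brackets; filled points have an adjusted p under 0.05, open points were not called, and the bar marks the median of the list. The medians are 2.42 for the Atf4 targets, 1.05 for the cytosolic synthetases and −0.23 for the mitochondrial synthetases. The median is −0.67 for the elongation factor list, which also holds the kinase gene Eef2k.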

How the data were processed

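The authors deposited 1 table of 37766 entries with a normalized signal per gene, which the submitters name as DESeq2 normalized values. This signal was read here as each gene's read count over the size factor of its library. The deposited table also holds the authors' mean signal, log2 fold change with its error, test score and p-value. The tools were CASAVA 1.8.2 and TopHat 1.3.2, then Cufflinks 1.2.1 and also DESeq2, on build mm10, per the submitters' processing notes. Neither the read counter nor its annotation is given in the sources used here. The 5 summary entries for reads in no gene, between 40.7 and 54.6% of reads, were left out, and 0 columns of per-sample values were unused. The values were whole multiples of 1 step per library for 100% of values within 0.01 reads, which gave the recovered read counts. For islet library 2 the step of 0.992 is too near 1 to tell this from rounded values.

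limma-trend (limma 3.58.1, R 4.3.3) was run on log2(value + 1) for genes that reached 10 normalized counts in 3 or more libraries. It was also run on simulated data, in which few genes changed and the library sizes were known. As most genes tested here were called, that run cannot decide on the scaling between the groups. Count models (edgeR 4.0.16, DESeq2 1.42.0) on recovered reads, limma-voom, other scalings, pseudocounts, filters and thresholds, a replicate block and leaving out each library were alternatives. Sequence matches used BLAST 2.17.0. Loci and transcripts are from GENCODE M21 on GRCm38, which is mm10, and promoters from RefSeq.

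The genes and lists were chosen with earlier results of these data known. Library values are given for the 2 steepest called rises and falls of each role, for genes not called and for Lars2, Gars and Kars (1 member and 1 list gene under this rule are not reported here), and from each list the 2 steepest rises and falls are named.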

Additional observations from a re-analysis of the deposited data

How the results depend on the processing

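The counts by role moved with the threshold and the scaling. Requiring a change of at least 2-fold left 12 of the 41 genes called, 11 of the 21 cytosolic genes with 0 lower, 1 mitochondrial gene, which was higher, with 0 lower, and 0 accessory genes. At an adjusted p under 0.01, 7 mitochondrial genes were called, 5 of them lower. Under limma-voom 7 cytosolic and 14 mitochondrial genes were lower, as were 10864 of all 21653 genes tested. Upper quartile scaling and scaling without the 20 most abundant genes each gave 6 cytosolic and 12 mitochondrial genes lower. Of all genes tested 9407 and 9506 were lower under these scalings. The median of all genes was −0.03 in the fit reported and −0.28 under upper quartile scaling, −0.26 under scaling without the 20 most abundant genes, −0.48 under limma-voom and −0.11 under edgeR. Relative to it the cytosolic median was 1.08 higher in the fit reported and 0.73 higher under quantile normalization. Of all genes called, 49.75% were higher in the fit reported, 33.93% under limma-voom and 55.80% without embryonic library 2. The edgeR quasi-likelihood test called 14 cytosolic genes higher and 6 lower and DESeq2 14 and 3, against 15 and 4. Leaving out 1 library gave 14 to 15 cytosolic genes higher and 3 to 5 lower, and 2 to 4 mitochondrial genes higher and 6 to 8 lower.

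Signs turned for genes with small differences. Under limma-voom the log2 fold change was −0.352 for Cars2, −0.148 for Ears2, −0.211 for Farsb, −0.079 for Iars and −0.199 for Rars2. In that fit each library was scaled by its summed normalized counts, and the median of all genes tested was −0.48. Under upper quartile scaling it was −0.162 for Cars2, −0.019 for Farsb and −0.006 for Rars2, and without the 20 most abundant genes −0.139 for Cars2. Under quantile normalization it was −0.009 for Farsb, and the difference of the ratio Hars/Hars2 was −0.067. Over the fits that left out 1 library, Hars/Hars2 ran from −0.026 (without islet library 1) to 0.142, Fars2 from −0.059 to 0.063 (without embryonic library 2) and Iars2 from −0.082 to 0.058 (without embryonic library 2). Without islet library 1 Fars2 gave 0.055 and Iars2 0.002. The cause was not tested. Over single genes and alternatives 617 values kept their direction and side of the threshold, 34 lost the call, 32 gained one and 14 turned.

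The replicate numbers gave no sign of pairing, since deviations of libraries with the same number correlated at 0.037, 0.077 and 0.005 across genes. With the replicate number as a block 14 cytosolic genes were higher and 4 lower, 2 mitochondrial genes were higher and 8 lower, and 15612 genes were called in all.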
